A study of Mus musculus with 18 samples.

Results

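The 47 genes described here build the DNA replication machinery or are switched on for S phase. They were taken by gene symbol from the deposited count table, and each of the 47 symbols named 1 row among 46333 named genes. All 47 passed the filter on low counts, which left 19323 genes for testing. They fall into 10 groups by role: origin recognition and licensing (4 genes), the MCM2-7 helicase (6), helicase activation (6), the sliding clamp and its loader (6), polymerases and primase (6), single-strand DNA binding (3), Okazaki fragment maturation (2), deoxynucleotide supply (4), fork, chromatin assembly and clamp partners (6), and G1/S transcription factors and cyclins (4).

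Whole urinary bladders of wild type BALB/c females, 8 weeks old, gave 18 RNA-seq libraries, 3 mice in each of 6 groups. Mice ate a normal diet, or from 1 week before injection a vitamin A-enriched diet, and received cyclophosphamide (CP, 150 mg/kg, intraperitoneal) or saline. This alkylating drug damages the lining of the bladder, the urothelium, through breakdown products in the urine, and the study asked how dietary vitamin A bears on its regeneration. The groups are saline at 1 day, CP at 1 day and CP at 3 days, each on both diets. A contrast of 3 days with saline is thus also one of collection day. In the labels the enriched diet holds 566081 UI per kg of retinyl acetate, whereas the series description names retinyl palmitate and 36 times the usual vitamin A. Mice lived 3 to a cage, the cage of a mouse is not in the labels, and effects of cage and group cannot be told apart.

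Before S phase the origin recognition complex, with Cdc6 and Cdt1, loads MCM2-7 rings onto DNA, and in S phase Cdc45 and the GINS complex turn each ring into a running helicase. Polymerases, the ring-shaped clamp PCNA and its loader RFC then copy both strands, while ribonucleotide reductase and thymidine kinase help to supply the nucleotides. Many of these genes are transcribed late in G1 by E2F factors, and cyclin E is one of their products that drives entry into S phase. The resting urothelium renews itself slowly, and injury sets its cells dividing.

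Totals ranged from 19554132 to 34598952 counts per library. Values below are counts per 1000000 counts of named genes in the library (CPM) unless FPKM, which also divides by gene length, is named. The lowest mean correlation of a library with its own group was 0.948 (replicate 2 of vitamin A, CP 3 days). The summed level of 14 urothelial markers was 11870 to 12530 CPM in normal-diet saline mice and 13750 to 16340 CPM 1 day after CP. Its members went both ways: the superficial-cell genes Upk1a (2232 to 2417, then 1254 to 1744 CPM), Upk2 (1120 to 1214, then 547 to 709 CPM), Upk3a and Krt20 were lower in every CP library, and the basal keratins Krt5 (954 to 1078, then 1859 to 2088 CPM) and Krt15 higher. Krt8 (928 to 1003, then 1495 to 1626 CPM), Krt18 and Krt19 were higher as well, so the rise was not limited to basal keratins. Trp63 moved little (207 to 212, then 212.5 to 248.7 CPM). The 7 fibroblast markers went from 6356 to 7103 CPM to 2069 to 3177 CPM and 7 smooth muscle markers from 23960 to 30700 CPM to 11600 to 19850 CPM. At 3 days the fibroblast markers stood at 8416 to 12810 CPM and 15 leukocyte markers at 475 to 728 CPM, against 289 to 342 CPM in saline mice. Collagen genes carried the fibroblast sum, such as Col3a1 (1584 to 1761 CPM in saline mice, 3117 to 4606 CPM at 3 days). Dcn (1418 to 1731, then 1052 to 1141 CPM) and Pi16 (228.8 to 297.1, then 55.6 to 90.8 CPM) were lower in every 3-day library. Most of the leukocyte sum was Lyz2 (317.6 to 535.5 CPM at 3 days). In bulk RNA, more or fewer cells of a type and more or less RNA per cell cannot be told apart, and the part of these shifts in the results below was not tested.

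One day after CP on the normal diet, 42 of the 47 genes rose and 0 fell (edgeR quasi-likelihood test, Benjamini-Hochberg adjusted p under 0.05), with a median log2 change of 1.85. Across all genes tested 7.26% rose, with a median log2 change of -7e-04. The 3 CP values lay above the 3 saline values for 45 of the 47 genes, against 20.8% of all genes. The 5 genes that did not pass were Gins3, Rfc1, Prim2, Rpa1 and Rpa3, each with a log2 change above 0. The summed level of the 47 genes was 610.6, 651 and 636 CPM in saline mice and 1568, 1902 and 1363 CPM after CP, so the lowest CP library held more than any saline library.

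**Figure D1:**
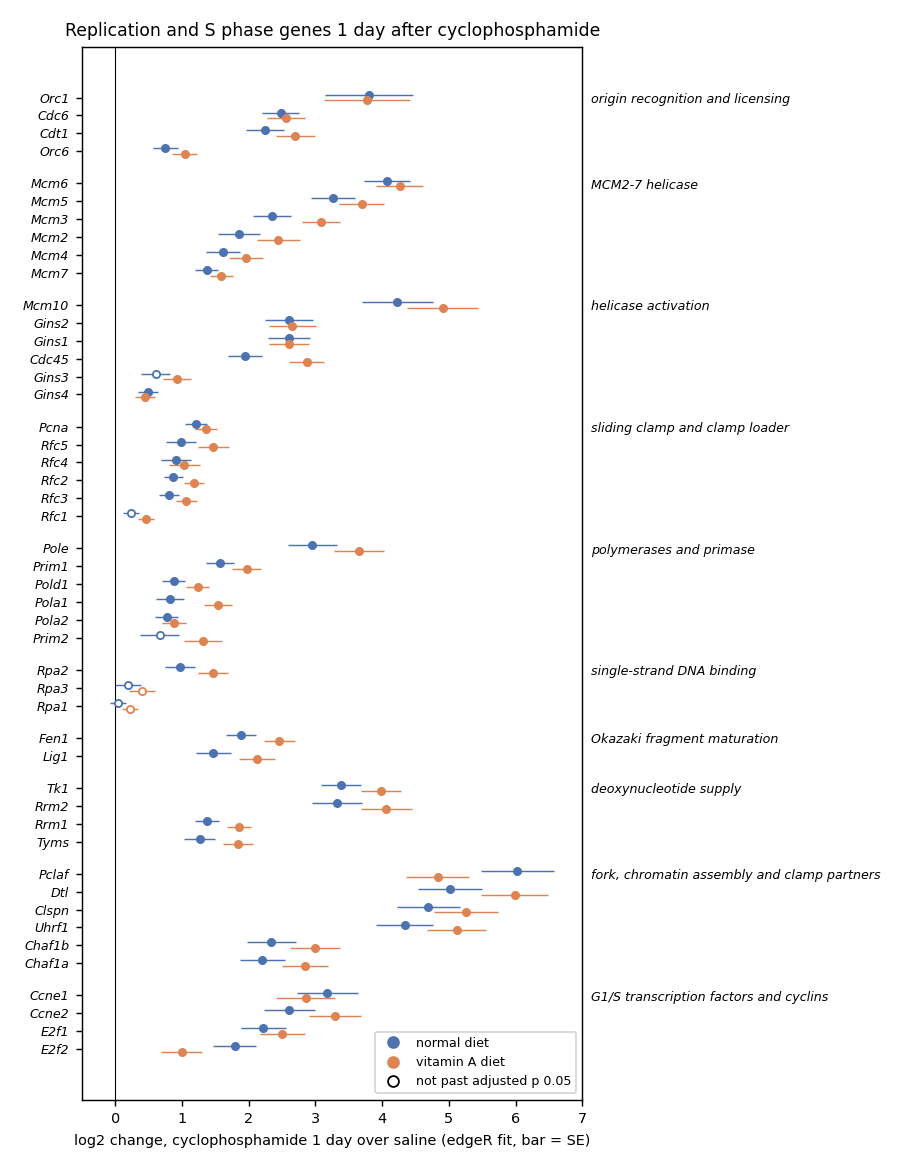
Each row is 1 gene, the x axis its log2 change 1 day after cyclophosphamide over saline from the edgeR fit (bar: standard error), in blue for the normal and orange for the vitamin A diet, with open circles for changes that did not pass an adjusted p of 0.05. All 47 points of either diet lie above 0, from 0.04 for Rpa1 to 6.03 for Pclaf on the normal diet.

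Of the licensing genes all 4 rose. Orc1, the ATPase subunit of the origin recognition complex that is made in pulses with the cell cycle, was at 0.391, 0.765 and 0.183 CPM in saline mice and 4.92, 6.09 and 7.203 CPM after CP, a log2 change of 3.80 ± 0.66 (SE, n = 3 against 3, edgeR adjusted p 0.000886), which was 4.45 without replicate 2 of the saline mice. Cdc6, the loader ATPase, stood at 6.104, 6.597 and 6.01 CPM and then at 36.4, 39.1 and 28.9 CPM (log2 2.48 ± 0.28, edgeR adjusted p 2.09e-05). Orc6, the smallest subunit of the recognition complex, changed least of the 4, from 9.67, 11.5 and 13.8 to 17.6, 23 and 18.2 CPM (log2 0.75 ± 0.19, edgeR adjusted p 0.0141). In all 3 genes the lowest CP library was above the highest saline library. Cdt1, the partner of Cdc6 in loading, had a log2 change of 2.24.

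All 6 MCM2-7 subunits rose, with log2 changes from 1.37 to 4.07. Mcm6 was at 3.32, 2.96 and 3.26 CPM in saline mice and 49.3, 65.6 and 46.2 CPM after CP, 16.8-fold higher in the fit (edgeR adjusted p 3.37e-06). Mcm5 went from 7.57, 6.502 and 5.12 to 60.7, 75.2 and 47.8 CPM and Mcm3 from 10.7, 12.2 and 10.4 to 49.2, 70.7 and 49.6 CPM. Mcm7 was at 29.8, 33.6 and 26.7 CPM and then 77.3, 93.1 and 63.6 CPM, 2.59-fold higher (edgeR adjusted p 5.22e-05). No CP library of these 4 subunits overlapped a saline library, and replicate 2 was the highest of the 3 CP mice for each.

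Among the genes of helicase activation 5 of 6 rose. Mcm10, a scaffold that joins the helicase to primase, was at 0.879, 0.239 and 0.6403 CPM in saline mice and 9.22, 15.1 and 9.04 CPM after CP (log2 4.23 ± 0.53, edgeR adjusted p 5.04e-05). The GINS complex divided: Gins1 and Gins2 had log2 changes of 2.60 and 2.61, whereas those of Gins3 and Gins4 were 0.60 and 0.49. Gins4 was at 20.3, 22.6 and 21.9 CPM and 28.9, 34.1 and 28.2 CPM, with no overlap (edgeR adjusted p 0.0446), but the call did not survive the loss of any single library of the 6. Gins3 had an edgeR adjusted p of 0.0753. Cdc45, the third part of the active helicase, had a log2 change of 1.94.

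The clamp and its loader moved by smaller ratios from higher levels, and 5 of 6 rose. Pcna was at 45.5, 52.8 and 48.6 CPM in saline mice and 109, 136 and 95.2 CPM after CP, 2.31-fold higher (edgeR adjusted p 0.000114), and had the highest FPKM of the 47 genes in both groups (38.7 ± 2.98 and 88.3 ± 15.1, SD, n = 3). The small loader subunits Rfc2 to Rfc5 had log2 changes of 0.81 to 0.99. Rfc1, the large subunit, was at 61.6, 52.9 and 53.9 CPM and 66.3, 67.5 and 64.05 CPM, without overlap but with an edgeR adjusted p of 0.232.

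Of the polymerase genes 5 of 6 rose, and Pole, the catalytic subunit of the leading-strand polymerase, had the largest change, log2 2.95 ± 0.36 (edgeR adjusted p 4.37e-05) against 0.87 for Pold1, its lagging-strand counterpart. Pole was at 1.66, 2.92 and 2.07 CPM and then 19.2, 20.1 and 12.3 CPM. The primase subunits differed, with log2 changes of 1.57 for the catalytic Prim1 and 0.66 for Prim2. Prim2 was at 8.35, 9.18 and 5.76 CPM and 13.6, 13.8 and 9.58 CPM (edgeR adjusted p 0.145). Its lowest CP library, replicate 3, was only just above the highest saline library.

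Replication protein A, the trimer that coats single-stranded DNA in replication and repair, had 1 of 3 subunits past the threshold. Rpa1 was at 96.4, 113 and 107 CPM in saline mice and 98.3, 124 and 104 CPM after CP, ranges that overlap (log2 0.04 ± 0.12, edgeR adjusted p 0.876). Rpa3 was at 12.5, 11.8 and 12.1 CPM and 12.6, 16.5 and 12.4 CPM (log2 0.19 ± 0.19, edgeR adjusted p 0.58). Rpa2 rose from 12.7, 13.5 and 12.8 to 23.8, 30.3 and 22.4 CPM (log2 0.97 ± 0.23, edgeR adjusted p 0.00858), with every CP library above every saline library.

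Both genes of Okazaki fragment maturation rose. Fen1, the flap endonuclease, went from 8.84, 7.75 and 9.03 to 30.7, 40.4 and 23.6 CPM (3.69-fold), and Lig1, the ligase that seals the fragments, from 16.5, 17.2 and 27.04 to 56.3, 64.2 and 48.04 CPM (2.77-fold, edgeR adjusted p 0.00115). Replicate 3 of the saline mice was the highest of its group for Lig1. All 4 genes of deoxynucleotide supply rose. Tk1, cytosolic thymidine kinase, was at 2.93, 2.58 and 1.55 CPM and then 23.03, 32.5 and 17.4 CPM (10.4-fold, edgeR adjusted p 3.62e-06). The ribonucleotide reductase subunits differed in size of change, with log2 3.32 for the cell-cycle-regulated Rrm2 and 1.37 for Rrm1, which went from 38.7, 39.6 and 40.03 to 112, 112 and 81.8 CPM. Tyms, thymidylate synthase, went from 14.6, 14.4 and 11.3 to 29.6, 38.8 and 28.4 CPM (log2 1.26).

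The largest changes were among the fork, chromatin assembly and clamp partners, all 6 of which rose. Pclaf, a small protein that binds PCNA, was at 0.244, 0.143 and 0.152 CPM in saline mice and 11.4, 16.7 and 7.37 CPM after CP (log2 6.03 ± 0.55, edgeR adjusted p 3.86e-06). Its ratio rests on 13 counts over the 3 saline libraries. Dtl, the substrate receptor of the ubiquitin ligase that destroys Cdt1, had a log2 change of 5.02, Clspn, the fork checkpoint adaptor claspin, 4.69, and Uhrf1, which brings DNA methyltransferase to newly copied DNA, 4.34. Chaf1a, the large subunit of the chromatin assembly factor, went from 4.98, 7.31 and 4.299 to 24.7, 34.8 and 17.02 CPM (log2 2.21). Of the G1/S regulators all 4 rose. Ccne1, cyclin E1, went from 1.66, 1.05 and 1.07 to 11.6, 15.7 and 6.71 CPM (log2 3.17 ± 0.46, edgeR adjusted p 0.000175). The transcription factor gene E2f2 went from 2.15, 1.34 and 1.799 to 7.93, 7.34 and 3.07 CPM, with replicate 3 well below the other 2 CP mice (log2 1.79 ± 0.32, edgeR adjusted p 0.00107).

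Promoter windows are shown for 5 members, 3 with large and 2 with small changes, picked with their values and matches known, because the genes moved together and E2F factors are the known common regulators. The RefSeq table (GRCm38.p6, 250 bases before to 50 after the start) held 39 of the 47 members. It was searched on both strands for the E2F letters TTTCCCGC, TTTCGCGC, TTTGCCGC and TTTGGCGC, some of whose matches overlap each other. The 120 bases just before the start are given 5′ to 3′ on the gene's strand, with E2F letters in capitals: Mcm6 at chr1:128359706-128359825 (minus strand), Dtl at chr1:191575545-191575664 (minus), Orc1 at chr4:108579334-108579453 (plus), Rpa1 at chr11:75348384-75348503 (minus) and Rfc1 at chr5:65335640-65335759 (minus).
Mcm6: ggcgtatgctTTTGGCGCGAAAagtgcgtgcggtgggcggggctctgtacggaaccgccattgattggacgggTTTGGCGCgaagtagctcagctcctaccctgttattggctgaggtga
Dtl: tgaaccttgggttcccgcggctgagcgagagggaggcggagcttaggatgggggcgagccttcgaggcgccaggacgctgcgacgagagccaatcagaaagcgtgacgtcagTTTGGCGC
Orc1: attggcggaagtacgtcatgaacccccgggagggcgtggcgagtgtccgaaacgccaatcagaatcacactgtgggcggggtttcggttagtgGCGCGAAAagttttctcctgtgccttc
Rpa1: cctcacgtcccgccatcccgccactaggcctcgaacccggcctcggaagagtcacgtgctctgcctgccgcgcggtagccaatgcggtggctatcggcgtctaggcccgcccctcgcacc
Rfc1: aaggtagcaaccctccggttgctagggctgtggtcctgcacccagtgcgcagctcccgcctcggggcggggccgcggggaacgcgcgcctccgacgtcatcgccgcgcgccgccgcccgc
Mcm6 had 3 matches, whose first bases lie 110, 106 and 47 bases before the start and of which the first 2 overlap. Dtl had 1 match ending at the start, 8 bases before it, and Orc1 had 1 at 27 bases before it. The windows of Rpa1 and Rfc1, the members with log2 changes of 0.04 and 0.23, held none. Matches were not limited to members with large changes: Gins3, Rfc3, Pola1 and Pold1 held E2F letters at log2 changes of 0.60, 0.81, 0.82 and 0.87, and Mcm10, at 4.23, held none.

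For other members that changed by large ratios the match lay elsewhere in the window, and it is shown with 8 bases on each side. The Pclaf match spans the start (chr9:65890310-65890333, plus strand), the Clspn match begins 22 bases after it (chr4:126556993-126557016, plus), the Uhrf1 match 185 bases before it (chr17:56304120-56304143, plus) and the first Mcm5 match 153 bases before it (chr8:75109348-75109371, plus).
Pclaf: tggagcgcGCGGGAAAgagaccca
Clspn: gcgtctggGCGCGAAAgctcgaac
Uhrf1: gagtcgggTTTCGCGCgcccaggc
Mcm5: ccaagaacTTTCGCGCcaaaacgt
In all, 17 of the 39 members (43.6%) held E2F letters, against 704 of 27025 genes in the table (2.6%). The median log2 change was 2.35 for the 17 with a match and 1.47 for the 22 without, and members without a match also included Tk1 and Rrm2 (3.38 and 3.32). CCAAT (both strands) stood in 26 of the 39 windows (66.7%, all genes 41.1%). TTTGAA, the core of the CHR element of mitotic genes (both strands), stood in 5 (12.8%, all genes 20.2%). In the windows of 25 G2 and mitosis genes the shares were 4.0% for the E2F letters, 84.0% for CCAAT and 76.0% for TTTGAA. A match of letters is a description of the sequence and shows no binding.

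Members with a low level at rest changed by the largest ratios. The resting level was taken from the saline mice on the vitamin A diet, which do not enter the normal-diet comparison. The 23 genes with the lower resting FPKM (0.0779 to 2.17) had a median log2 change of 2.95 on the normal diet, ranging from 0.66 to 6.03. The 24 with the higher resting FPKM (2.50 to 41.1) had a median of 0.98 and a range from 0.04 to 2.61.

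**Figure D2:**
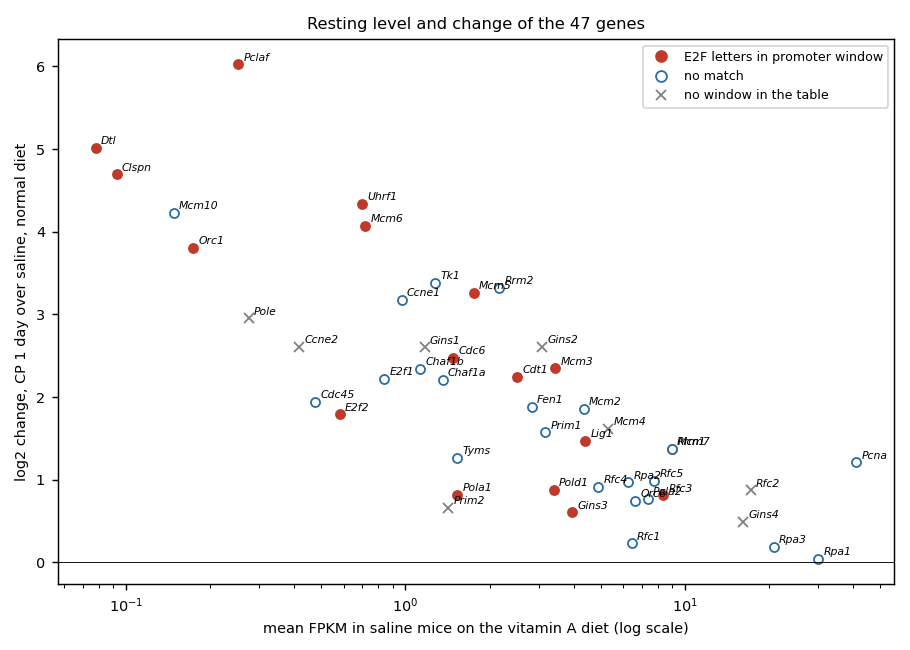
Each point is 1 of the 47 genes, with its mean FPKM in saline mice on the vitamin A diet on the x axis (log scale) and its log2 change 1 day after cyclophosphamide on the normal diet on the y axis. Filled red points hold E2F letters in the promoter window, open blue points do not, and grey crosses had no window in the table; the points run from Dtl, Clspn and Pclaf at upper left to Rpa1 and Rpa3 at lower right.

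The subunits of MCM2-7, GINS and replication protein A came closer to each other in level 1 day after CP, and those of the clamp loader did not. Mcm6, which had the lowest FPKM of the MCM2-7 subunits in saline mice, was at 0.7505, 0.6704 and 0.726 FPKM, and Mcm7, the highest, at 8.61, 9.69 and 7.59 FPKM. After CP these were 11, 14.4 and 10.3 FPKM and 22.01, 26.1 and 18.1 FPKM. The ratio of the highest to the lowest of the 6 subunits within a library was 10.4 to 14.5 in normal-diet saline mice and 1.76 to 2.001 1 day after CP, so the ranges lay far apart. On the vitamin A diet it was 11.1 to 17.02 and 2.01 to 2.38. At 3 days it was 1.41 to 2.13 on the normal and 1.64 to 3.002 on the vitamin A diet.

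The 4 GINS subunits showed the same direction with a wider remaining gap. Gins4 was at 14.9, 16.6 and 15.8 FPKM and Gins1 at 0.762, 0.806 and 0.713 FPKM in saline mice, and the within-library ratio of highest to lowest went from 19.6 to 22.2 to 4.67 to 5.04 after CP. For replication protein A it went from 3.98 to 4.41 to 2.15 to 2.43, as Rpa2 came nearer to Rpa1. On the vitamin A diet the ratio went from 12.8 to 14.6 to 2.73 to 3.67 for GINS and from 3.88 to 6.61 to 1.76 to 2.43 for replication protein A. For the clamp loader it was slightly higher after CP on both diets, at 3.21 to 4.005 and then 4.01 to 4.35 on the normal and 3.096 to 4.101 and then 4.204 to 4.76 on the vitamin A diet. The 4 subunits of polymerase alpha and primase gave a mixed picture: the ranges overlapped on the normal diet, at 3.55 to 5.95 and 3.62 to 5.87, and lay apart on the vitamin A diet, at 5.21 to 6.66 in saline mice and 3.33 to 5.09 after CP. The difference between the diets was not tested. Pola2 was the highest and Prim2 the lowest of the 4 in these groups.

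**Figure D3:**
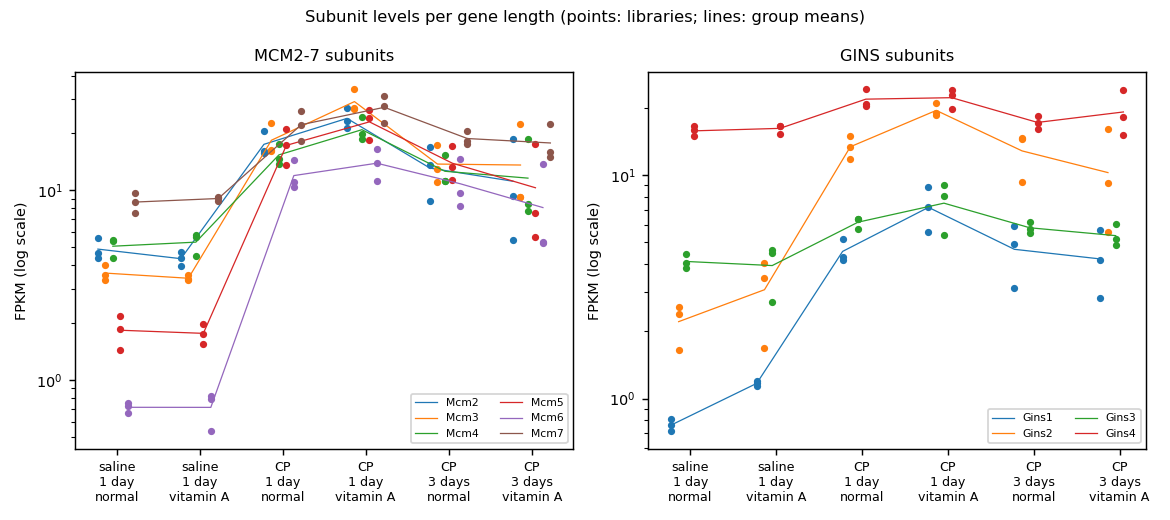
FPKM (log scale) of the MCM2-7 subunits at left and the GINS subunits at right in the 6 groups; points are libraries, 3 per group, and lines join group means. The 6 MCM2-7 lines are spread in saline mice, where Mcm6 lies below 0.9 FPKM and Mcm7 above 7 FPKM, and draw together after cyclophosphamide, while Gins4 stays the highest GINS subunit in every group mean.

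On the vitamin A diet 45 of the 47 genes rose 1 day after CP and 0 fell (edgeR), with a median log2 change of 2.45, against 10.2% of all genes. Rpa1 and Rpa3 were the 2 that did not pass. Gins3, Rfc1 and Prim2 passed here, with log2 changes of 0.92, 0.46 and 1.32. The test of the difference between the diets' responses called 0 of the 47 genes and 0 of all genes (0%, edgeR), with 2 members (Cdc45 and Pola1, 4.26%) and 1505 genes (7.79%) at an unadjusted p under 0.05. DESeq2 called 0 members and 120 genes. The interaction was above 0 for 42 of the 47 genes, with a median log2 of 0.40 and a range from -1.20 for Pclaf to 0.97 for Dtl. Pclaf had a single high saline library on this diet, with 0.2904, 0.272 and 1.25 CPM, and its log2 change on this diet was 4.83, or 5.81 without that library.

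Set directly against each other 1 day after CP, the diets gave 46 of 47 log2 differences above 0 (vitamin A over normal), with a median of 0.35, and 0 of 47 passed the edgeR test (all genes called either way 0.466%). At an unadjusted p under 0.05 there were 5 members (10.6%), Mcm3, Gins1, Rrm2, Tk1 and Chaf1b, a share near the 11.1% of all genes in this fit. The share moved with the setting. Leaving out 1 library gave 1 (2.13%, all genes 9.45%, without replicate 3 of the normal diet) to 11 (23.4%, all genes 7.96%, without replicate 3 of vitamin A). With the filter and fit run on these 2 groups alone there were 13 (27.7%, all genes 10.7%). DESeq2 called 0, with 6 (12.8%, all genes 12.8%) at an unadjusted p under 0.05. For 12 of the 47 genes (25.5%) every vitamin A library lay above every normal-diet library, against 7.18% of all genes. The summed level of the 47 genes was 2248, 2163 and 1796 CPM on the vitamin A diet and 1568, 1902 and 1363 CPM on the normal diet, so replicate 3 of the first lay below replicate 2 of the second. In the same libraries the leukocyte markers summed to 151 to 257 CPM on the vitamin A and 289 to 305 CPM on the normal diet, and 5 adipocyte markers to 477 to 1244 and 265 to 387 CPM. Lyz2 was the highest leukocyte marker (72.7 to 113.4 and 157.8 to 182.7 CPM). The means of S100a8 (2.71 and 0.613 CPM) and S100a9 (6.51 and 1.01 CPM) went the other way. Most of the adipocyte sum was Fabp4 (468.6 to 1037 and 248.7 to 377.2 CPM). The part of these markers in the diet difference was not tested.

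Rrm2 had the lowest p of the 47, with a log2 difference of 1.06 ± 0.33 (unadjusted edgeR p 0.00491, adjusted p 0.177). Its level was 86.6, 88.9 and 66.8 CPM on the vitamin A and 40.9, 52.8 and 22.1 CPM on the normal diet. Its 3 vitamin A libraries were all above the 3 on the normal diet. Tk1 was at 52.2, 39.8 and 33.4 CPM and 23.03, 32.5 and 17.4 CPM, without overlap (log2 0.77 ± 0.26, edgeR adjusted p 0.216), and Mcm3 at 85.6, 103 and 80.5 CPM and 49.2, 70.7 and 49.6 CPM (log2 0.66 ± 0.26, edgeR adjusted p 0.335). In the authors' deposited table of this comparison 11 of the 47 genes are listed, all higher on the vitamin A diet, among 2219 genes with an unadjusted p under 0.05. In the authors' deposited table Rrm2 (log2 1.06, adjusted p 0.003) and Mcm3 (log2 0.66, adjusted p 0.0253) pass an adjusted p of 0.05 and Tk1 (adjusted p 0.0606) does not. Of the 2219 genes listed there 377 pass. Genes with a higher unadjusted p are not listed, so no share of all genes can be set beside these counts.

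In saline mice the diet left the 47 genes without a call. The edgeR test called 0 of 47 (all genes 0.0104%), with 2 (4.26%, all genes 3.78%) at an unadjusted p under 0.05, Pclaf and E2f2, and DESeq2 also called 0. The median log2 difference was -0.05 and 18 of 47 were above 0. Summed levels were 599, 597 and 605 CPM on the vitamin A diet against 610.6, 651 and 636 CPM. None of the 47 genes is listed in the authors' deposited table of this comparison.

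At 3 days after CP most of the genes were above saline levels on both diets. On the normal diet 39 of 47 were higher and 0 lower (edgeR, median log2 1.71, all genes higher 6.74%), and on the vitamin A diet 39 and 0 (median 1.37, all genes 4.32%). With the filter and fit run on the vitamin A groups compared alone (17403 genes tested, 402 of them higher), the second count was 22, at a median of 1.37. With 1 library left out, the second count was 30 to 39 and the first 35 to 38. The 30 came without replicate 3 of the vitamin A 3-day mice, at a median of 0.94 (20013 genes tested, 637 of them higher). Not called on either diet in the main fit were Gins3, Gins4, Rfc1, Pola2, Prim2, Rpa1 and Rpa3. Rfc4 was added on the normal and E2f2 on the vitamin A diet. Pclaf remained the gene with the largest change on the normal diet (log2 7.04 ± 0.55), at 30.5, 19.7 and 23.8 CPM. On the vitamin A diet Dtl (log2 5.43 ± 0.50) and Pclaf (4.95) had the largest, at sizes that moved with single libraries. Without replicate 3 of the saline mice these were 6.02 and 5.93, and without replicate 3 of the 3-day mice 4.75 and 4.73. Mcm6 stood 15.2-fold and 11.4-fold above saline on the normal and the vitamin A diet, and the latter was 7.4-fold without replicate 3 of the 3-day mice.

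From 1 to 3 days on the normal diet 0 of the 47 genes passed (edgeR, all genes called either way 1.44%), and DESeq2 called 0. At an unadjusted p under 0.05 there were 5 (10.6%), a share near the 11.3% of all genes. The median log2 change was -0.14 and 16 of 47 were above 0, which became -0.03 and 23 without replicate 2 and -0.24 and 8 without replicate 3 of the 1-day mice, and -0.23 and 10 without replicate 1 of the 3-day mice. Every 3-day value lay below every 1-day value for 5 genes (10.6%), near the 10.8% of all genes. The summed level was 1734, 1319 and 1479 CPM at 3 days.

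On the vitamin A diet 10 of the 47 genes fell from 1 to 3 days and 0 rose (edgeR, median log2 change -0.63), against 1.69% of all genes that fell. They were Cdc6, Mcm3, Mcm5, Mcm7, Pcna, Pola2, Pold1, Fen1, Lig1 and Rrm1. Log2 changes were below 0 for 45 of 47 genes. For 18 of 47 (38.3%) every 3-day value lay below every 1-day value, against 7.85% of all genes. The number of calls moved with single libraries. It was 29 without replicate 3 of the 3-day mice, 1 and 2 without their replicates 1 and 2, and 5, 1 and 4 without replicates 1, 2 and 3 of the 1-day mice. It was 19 with DESeq2, and 0 with the filter and fit run on these 2 groups alone (17253 genes tested), where the median log2 change was -0.64. Over all genes 327 fell in the main fit, 809 with DESeq2 and 10 with these 2 groups alone. The number was 211, 273 and 580 without replicates 1, 2 and 3 of the 3-day mice. Without replicates 1, 2 and 3 of the 1-day mice it was 465, 144 and 132.

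Cdc6 had the lowest adjusted p of the 10. It was at 48.6, 42.8 and 42.8 CPM at 1 day and 13.6, 10.7 and 29.1 CPM at 3 days (log2 -1.31 ± 0.27, edgeR adjusted p 0.00923). Lig1 was at 79.6, 80.9 and 53.2 CPM and 25.5, 25.8 and 47.9 CPM (log2 -1.09 ± 0.26, edgeR adjusted p 0.0229). Fen1 was at 42.8, 42.6 and 38.4 CPM and 16.03, 19.9 and 29.2 CPM (log2 -0.90 ± 0.22, edgeR adjusted p 0.0244). In these 3 genes replicate 3 of the 3-day mice was the highest of its group and still below the lowest 1-day library.

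Mcm3 went from 85.6, 103 and 80.5 CPM to 29.5, 26.5 and 69.3 CPM and Mcm5 from 96.7, 82.9 and 63.7 CPM to 28.1, 18.9 and 63.1 CPM, 2.13-fold and 2.19-fold lower in the fit, and Mcm5 was 3.41-fold lower without replicate 3 of the 3-day mice. Mcm7 went from 101, 108 and 77.95 to 54.5, 52.3 and 79.5 CPM (edgeR adjusted p 0.0495), where replicate 3 at 3 days was above the lowest 1-day library. Rrm1 went from 155, 139.8 and 100.4 to 69.1, 68.3 and 105 CPM, again with replicate 3 above the lowest 1-day library. Pcna, at 127, 139 and 138 CPM and then 72.7, 74.7 and 113 CPM, did not overlap (1.54-fold lower, edgeR adjusted p 0.0395).

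**Figure D4:**
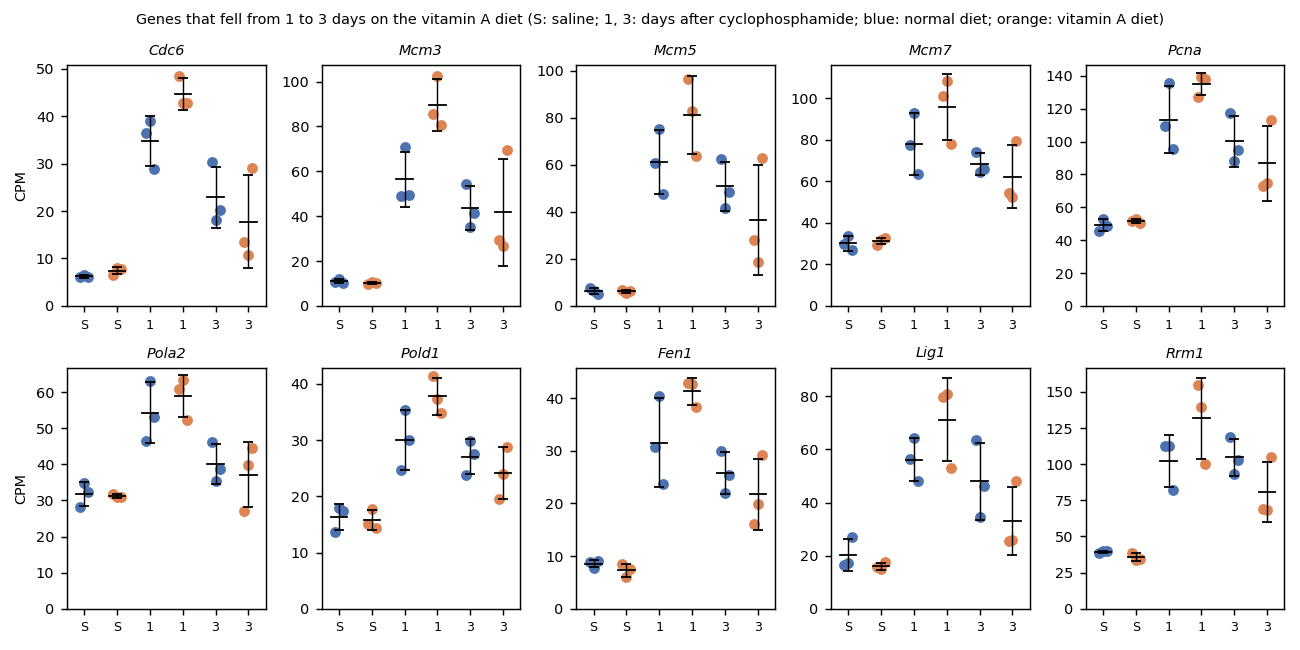
CPM of the 10 genes that fell from 1 to 3 days on the vitamin A diet, in each of the 18 libraries (points; bar and whisker: mean ± SD of 3 mice; S: saline, 1 and 3: days after cyclophosphamide; blue: normal, orange: vitamin A diet). In all 10 panels 1 orange point at 3 days, replicate 3, lies above the other 2, as for Cdc6 with 29.1 against 13.6 and 10.7 CPM.

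Replicate 3 of vitamin A at 3 days stood apart in the summed level of the set, though not in every gene. Rpa1 was lowest in this replicate and highest in replicate 2. Rpa2, Rpa3, Gins4 and Rfc4 were also highest in replicate 2, and E2f2 in replicate 1. The other members were highest in replicate 3. The summed level of the 47 genes was 1053 and 1067 CPM in replicates 1 and 2 and 1746 CPM in replicate 3, which is above every normal-diet library at 3 days. In the same 3 libraries the urothelial markers summed to 9731, 12950 and 14920 CPM and the fibroblast markers to 13290, 8766 and 5972 CPM. The part of these markers in the difference was not tested.

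The test of whether the change from 1 to 3 days differed between the diets called 0 of the 47 genes and 0 of all genes (0%, edgeR), with 6 members and 1732 genes at an unadjusted p under 0.05. DESeq2 called 0 members and 87 genes. The 6 (12.8%, all genes 8.96%) were Cdc45, Pole, Lig1, Rrm1, Rrm2 and Tk1. Leaving out 1 library gave 1 (2.13%, all genes 7.63%, without replicate 3 of the normal diet at 1 day) to 29 (61.7%, all genes 12.5%, without replicate 3 of vitamin A at 3 days). The interaction was below 0 for 46 of the 47, with a median log2 of -0.53, which ranged from -0.89 to -0.35 when a library was left out. Tk1 had the lowest p, with a log2 interaction of -1.15 ± 0.37 (edgeR adjusted p 0.346). Its level was 40.5, 30.5 and 38.4 CPM on the normal and 20.03, 23.97 and 36.2 CPM on the vitamin A diet at 3 days.

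Between the diets at 3 days the edgeR test called 0 of 47 (all genes 0.00518%) and 0 were at an unadjusted p under 0.05, while DESeq2 called 0. The median log2 difference (vitamin A over normal) was -0.15, and 8 of 47 were above 0. For 1 gene (2.13%) every vitamin A library lay below every normal-diet library, against 3.78% of all genes. Without replicate 3 of vitamin A the median was -0.54 and 22 of 47 (46.8%, all genes in that fit 8.51%) were at an unadjusted p under 0.05, with 0 called. Without replicate 1 of vitamin A the median was 0.02 and 25 of 47 were above 0. None of the 47 genes is listed in the authors' deposited table for 3 days.

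A list of 30 G2 and mitosis genes, such as cyclin B and centromere genes, is set beside the 47. One day after CP on the normal diet 29 of 30 rose (edgeR, median log2 3.68, all genes 7.26%). From 1 to 3 days on the normal diet 5 rose (all genes 236 of 19323), 30 of 30 were above 0 and the median was 1.37. The 47 replication genes had a median of -0.14 over the same days. Summed mitotic levels were 236 to 743 CPM at 1 day and 993 to 1297 CPM at 3 days on the normal diet, with no overlap, while the sums of the replication genes (1363 to 1902 and 1319 to 1734 CPM) overlapped. Cenpa, the centromere histone, and Cenpf, a kinetochore protein, had the largest of the 5 called changes (log2 1.91 and 1.82, edgeR adjusted p 0.0218 and 0.0184).

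On the vitamin A diet the mitotic list had no call between the days. Its sums were 716 to 1744 CPM at 1 day and 647 to 1086 CPM at 3 days, 0 of 30 passed (edgeR, 0 also at an unadjusted p under 0.05) and the median log2 change was -0.49. Replicate 1 of the 1-day mice held the highest sum, 1744 CPM. The interaction of diet and time called 0 of 30, with 26 at an unadjusted p under 0.05 (all genes 8.96%).

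**Figure D5:**
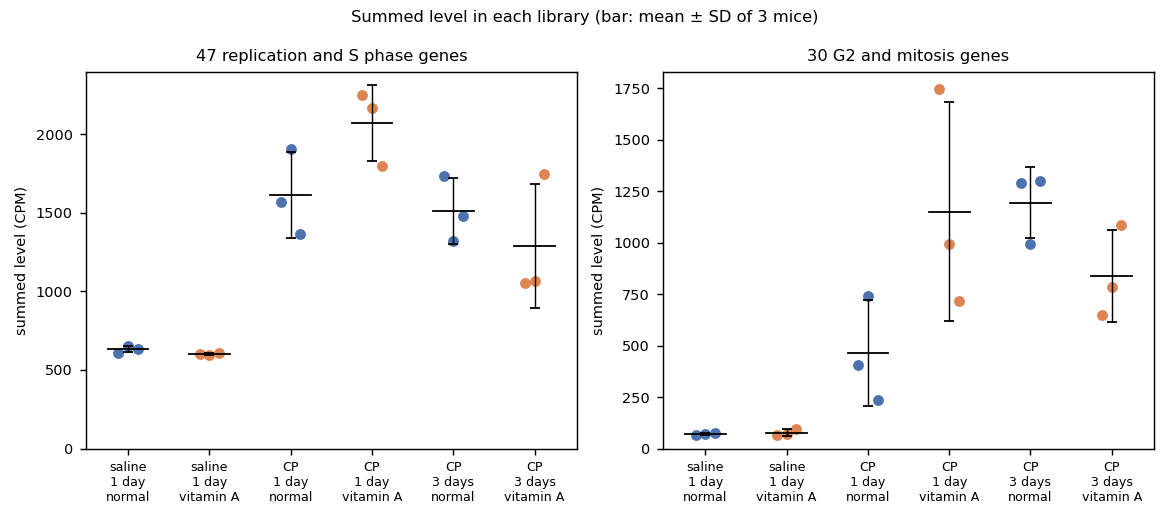
Summed CPM in each library (points; bar and whisker: mean ± SD of 3 mice) of the 47 replication and S phase genes at left and of 30 G2 and mitosis genes at right, by group. The replication sums are at most 651 CPM in saline mice and at least 1053 CPM after cyclophosphamide, and on the normal diet the mitotic sums at 3 days lie above all those at 1 day.

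Beyond the 47, a list of 46 other replication genes (further origin, polymerase, fork and nucleotide genes) had 29 that rose and 0 that fell 1 day after CP on the normal diet (edgeR, median log2 0.96, all genes 7.26% and 4.49%). Exo1, an exonuclease, and Esco2, the acetyltransferase that sets cohesion at the fork, had the largest changes (log2 6.17 and 5.48). Dbf4, the activating subunit of the kinase that fires origins, was the 1 gene of the list called between the diets at 1 day, at log2 0.99 (edgeR adjusted p 0.0495, all genes called either way 0.466%), and the 47 genes had none. Among 28 G1/S and E2F control genes 7 rose and 3 fell 1 day after CP on the normal diet (all genes 7.26% and 4.49%). The repressors E2f8 and E2f7 had log2 changes of 5.18 and 3.28, and Cdkn1c, a cyclin-dependent kinase inhibitor, and Rbl2, a pocket protein of quiescent cells, of -1.22 and -0.72.

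Across the 18 libraries the 5 genes outside the 47 whose log2 CPM ran most like the mean of the standardised members were Zwilch (Pearson r 0.982), Dut (0.975), Trip13 (0.973), E2f8 (0.973) and Atad2 (0.973). Dut makes the precursor of thymidylate from dUTP, and Zwilch is a kinetochore protein. Within the set, the r of a gene with the mean of the other 46 was lowest for Rpa1 (0.477), Rfc1 (0.580), Rpa3 (0.619) and Gins4 (0.740) and highest for Fen1 (0.989). These are descriptions over libraries that share groups and scaling, and carry no test.

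The genes are annotated on GRCm39, among them Mcm6 at chr1:128259312-128287442, Dtl at chr1:191269468-191307656, Pcna at chr2:132091206-132095100 and Pclaf at chr9:65797605-65810833, all protein-coding. Of the 47, 16 overlap a gene on the opposite strand in the count table, taken from gene start to gene end with introns included. Whether counting used strand is not given in the sources used here. Where exons of both genes overlap, their reads may not be told apart, and overlap of exons was not examined. The longest overlap with an expressed protein-coding neighbour is that of Pclaf with Trip4, 13229 bases. Trip4 had a log2 change of -0.03 (edgeR adjusted p 0.902) 1 day after CP on the normal diet, where Pclaf had 6.03. Ints8, which overlaps Ccne2 over 5622 bases, had 0.22 (edgeR adjusted p 0.341). The long noncoding RNA gene A630034I12Rik, which overlaps Ccne2 over 742 bases and had counts equal to 98.8% of those of Ccne2, had 1.15 (edgeR adjusted p 0.0858), against 2.61 for Ccne2. Tmem258, which overlaps Fen1 over 192 bases, rose by 0.66 on the log2 scale (edgeR adjusted p 0.0434), against 1.88 for Fen1.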

How the data were processed

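The deposited table holds whole-number counts per gene of 18 bladder libraries, and a second deposited table holds FPKM, counts scaled by gene length and library size. The submitters' processing notes name featureCounts 1.5.0-p3, HISAT2 2.0.5, DESeq2 1.20.0 and the build GRCm39. What each tool was used for, and strandedness, is not given in the sources used here. Comparison tables deposited by the authors hold a log2 ratio (normal over vitamin A, sign turned here), a p-value and an adjusted p-value, for genes with an unadjusted p under 0.05.

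Of 60750 features 14417 had no name and were left out (at most 0.81% of a library's counts). The test of named genes was edgeR 4.0.16 (R 4.3.3): filterByExpr by group, TMM, robust quasi-likelihood test, 1 mean per group over 18 libraries, 12 residual degrees of freedom, 11 contrasts, 2-sided, Benjamini-Hochberg over 19323 genes, threshold 0.05. The SE is the log2 change divided by the root of its F. Labels call the samples biological replicates. DESeq2 1.42.0, RLE factors, no filter, a replicate block, the compared groups alone, unnamed features and leaving out each library were alternatives. The script was tested on simulated data. Members and lists were chosen with earlier results of these data known. Values of every library are given for the members with the largest and smallest change of each role at 1 day on the normal diet, any called for diet, and up to 10 whose call differed from most. Replicate numbers did not pair libraries: 3 of 45 same-numbered pairs correlated over 0.1. A gene outside the 47 is named when among the largest called changes of its list or most alike.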

Additional observations from a re-analysis of the deposited data

How the results depend on the processing

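Of 66 recounts of the members called (11 comparisons under 6 other settings), 62 stayed within 1.5 times the main count. The 62 include all recounts of the diet and interaction comparisons and of 1 to 3 days on the normal diet. No setting called a member in these. The other 4 of the 66 recounts were on the vitamin A diet. From 1 to 3 days the 10 calls became 19 with DESeq2, 5 with the replicate block and 0 with only the groups compared, and 1 to 29 when 1 library was left out. At 3 days against saline the 39 calls became 22 with only the groups compared. The cause was not tested. Fits on the groups compared alone rest on fewer libraries and genes, and on the normal diet the 39 calls at 3 days against saline became 42. The replicate block moved no other member count by over 1.5 times, and 5 of 18 libraries correlated best with their own number. Over all genes the diet at 1 day gave 90 calls, 499 with DESeq2 and 2 with only the groups compared.

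Leaving out 1 library turned the sign of some log2 differences that had not passed. Ranges for the diet at 3 days were -0.35 to 0.23 for Cdt1, -0.83 to 0.10 for Mcm2, -0.04 to 0.30 for Gins4, -0.15 to 0.13 for Rfc2, -0.19 to 0.21 for Rfc4, -0.18 to 0.16 for Pola2, -0.091 to 0.12 for Rpa1, -0.22 to 0.23 for Rpa2, -0.62 to 0.24 for Chaf1b, -0.62 to 0.36 for Ccne1 and -0.32 to 0.31 for Ccne2. They were -0.27 to 0.27 for Cdt1 in saline mice and -0.21 to 0.19 for Rpa3 from 1 to 3 days on the vitamin A diet. With 3 mice a group, small diet differences may stay below detection. Pclaf, Dtl, Orc1, Clspn and Mcm10 had 13 to 51 counts over a saline group, so their ratios are the least precise.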
